A study of Mus musculus with 12 samples.

Results

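The genes described here are 10 growth factor and cytokine receptor genes of LSK cells, Kit, Csf3r, Csf2ra, Csf2rb, Il3ra, Il6ra, Il6st, Il1r1, Tgfbr1 and Tgfbr2. They were chosen by name, all 10 were measured, each by 1 probe set with that symbol alone, and they stand among 22180 genes tested. LSK cells are the bone marrow fraction that lacks lineage markers and carries Sca1 and Kit on its surface, and it holds haematopoietic stem cells and multipotent progenitors. They were sorted from C57BL/6 mice that were wild type (Mll5+/+) or lacked Mll5 (Mll5-/-, here the mutant), a chromatin regulator gene now named Kmt2e. Mice of each genotype either received no N-Acetyl-L-Cysteine (NAC), a quencher of reactive oxygen species, and are called mock, or drank water with 1 g of NAC per liter from the mating of their Mll5+/- parents onward and throughout life. The knockout was present in the whole animal, and no age is given. Each of the 4 groups had 3 arrays. Nothing in the labels ties an array to a mouse or a pool of mice, and the p-values therefore refer to the scatter among these arrays, part or all of which could be technical.

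Cytokine receptors pass signals from outside the cell by bringing kinases together. Kit, the receptor of stem cell factor, is itself a tyrosine kinase, and stem and progenitor cells need it to survive. The receptors of granulocyte and granulocyte-macrophage colony-stimulating factor, interleukin-3 and interleukin-6 have no kinase of their own and work through Janus kinases and STAT factors, with Csf2rb (the common beta chain) and Il6st (gp130) as signalling chains shared by several ligands. Il1r1 signals toward NF-kB through the adaptor Myd88, and Tgfbr2 and Tgfbr1 are serine/threonine kinases that act through SMAD factors and hold stem cells in quiescence. Kit was also one of the surface proteins by which the cells were sorted, so its transcript was measured in cells already selected for the protein.

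Values are log2 signals, on which a difference of 1 is a 2-fold change, and the brightness of different probe sets is not comparable. Over all members and arrays the lowest value was 3.98, above the median gene level of 3.17. All 13 measured genes of a list called LSK-defining here, among them Cd34, Procr, Meis1 and Hlf, lay above that level. Kit was the only sorting marker among the 13, as Ly6a, which encodes Sca1, is not analysed here. Of T and NK cell genes, 8 of 9 measured lay at or below it, and of mature neutrophil genes 8 of 13, whereas 9 of 11 megakaryocyte, 5 of 6 erythroid and 7 of 11 B cell genes lay above it. The lowest limma array weights, which are small for arrays that scatter more about their group, were 0.54 for mutant NAC replicate 1 and 0.71 for wild-type mock replicate 1, against 0.87 to 1.35 for the other arrays. In mutant NAC replicate 1 all 10 members were below their own mean over the 12 arrays, by a median of 0.29, and 4 of them had their lowest value there. No other array had more than 6 members below. The effect of leaving out these 2 arrays, called those that stand apart, is given beside the members' counts and the differences it moved most, and whether they set the members' values was not tested.

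**Figure D1:**
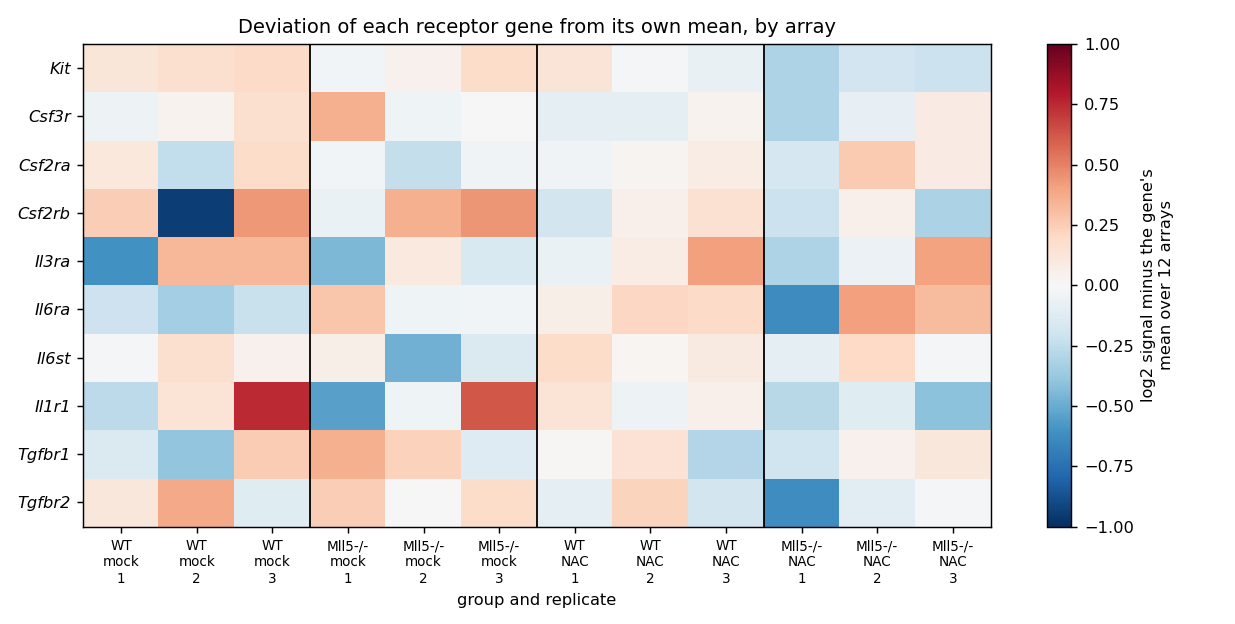
Log2 signal of each receptor gene minus that gene's own mean over the 12 arrays, shown by colour for each array, with the groups parted by black lines. The column of mutant NAC replicate 1 is blue throughout, for all 10 genes, and Csf2rb in wild-type mock replicate 2 is the darkest cell.

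The promoters of the members gave a sequence context for the array values. RefSeq windows (GRCm38.p6) from 250 bases before to 50 bases after a start site were matched by gene for 9 of the 10 members, Csf2rb being unmatched. Il1r1, Kit and Tgfbr1 have 2 windows each. The letters GAGGAAG, which resemble the site of the myeloid factor PU.1, were found on either strand in windows of 5 of the 9 genes (Kit, Csf3r, Csf2ra, Tgfbr2 and 1 of the 2 windows of Tgfbr1), and in 13.6% of all 32851 windows. The letters CAGAC of a SMAD box were found for 5 of 9 genes and in 49.6% of all windows, TTGCNNAA, resembling a C/EBP site, for 3 of 9 and in 10.8%, and NGATAA, resembling a site of the factor Gata2, for Il6ra alone and in 25.3%. TGTGGT (RUNX) and TTCNNNGAA (STAT) matched in 0 of the 9, against 16.8% and 8.3% of all windows. A gene counted if any of its windows matched, whereas the percentages count single windows, so the 2 are not the same measure. Il1r1 and Tgfbr1 matched CAGAC in 1 of their 2 windows each, and Il1r1 matched TTGCNNAA in 1 of 2. N stands for any base, and none of these strings contains another. A match describes these letters in this window and is not a site. The promoters of Kit, the member with the clearest group pattern, and of Csf3r and Csf2ra, the myeloid growth factor receptors, are shown 5′ to 3′ on the gene's strand with GAGGAAG in capitals. Kit lies on the plus strand of chromosome 5 (window chr5:75574737-75575036, the first of 2 that overlap almost fully), Csf3r on the plus strand of chromosome 4 (chr4:126024409-126024708) and Csf2ra on the minus strand of chromosome 19 (chr19:61228369-61228668).
Kit promoter: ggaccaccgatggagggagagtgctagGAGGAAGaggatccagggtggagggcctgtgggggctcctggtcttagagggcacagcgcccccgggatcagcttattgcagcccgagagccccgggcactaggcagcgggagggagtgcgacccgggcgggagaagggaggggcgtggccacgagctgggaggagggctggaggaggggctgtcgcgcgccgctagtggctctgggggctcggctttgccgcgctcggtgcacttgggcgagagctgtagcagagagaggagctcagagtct
Csf3r promoter: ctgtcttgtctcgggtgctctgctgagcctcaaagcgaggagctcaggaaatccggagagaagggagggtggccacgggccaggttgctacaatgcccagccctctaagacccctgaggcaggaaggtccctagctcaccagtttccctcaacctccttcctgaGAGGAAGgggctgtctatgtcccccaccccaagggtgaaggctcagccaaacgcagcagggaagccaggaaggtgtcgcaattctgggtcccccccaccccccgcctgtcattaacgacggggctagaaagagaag
Csf2ra promoter: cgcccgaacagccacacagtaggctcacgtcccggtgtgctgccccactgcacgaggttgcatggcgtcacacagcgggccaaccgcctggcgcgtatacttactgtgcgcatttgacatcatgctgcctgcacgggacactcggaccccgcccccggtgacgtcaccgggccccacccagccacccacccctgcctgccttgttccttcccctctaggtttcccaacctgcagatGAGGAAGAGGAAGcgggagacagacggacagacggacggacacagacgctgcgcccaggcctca
In Kit the match lies at bases 28 to 34 of the window and in Csf3r at bases 165 to 171. Csf2ra has 2 matches that share a base, at bases 237 to 243 and 243 to 249, next to the start site.

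Kit was lowest in mutant cells from NAC-treated mice. Its log2 signals were 9.17, 9.21 and 9.24 in wild-type mock cells and 9.02, 9.09 and 9.23 in mutant mock cells. With NAC they were 9.18, 9.03 and 8.97 in wild type and 8.74, 8.86 and 8.83 in the mutant. All 3 mutant NAC arrays lay below each of the other 9 arrays, a pattern singled out after the values were seen, which 170 of 22180 genes (0.766%) showed, while the other 3 groups overlapped. By group mean the order was wild-type mock (9.21 ± 0.04, SD, n = 3), mutant mock (9.11 ± 0.11), wild-type NAC (9.06 ± 0.11) and mutant NAC (8.81 ± 0.06).

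The sizes were small. Between genotypes in NAC the log2 difference of Kit was -0.25 (1.19-fold, SE 0.11, 95% interval -0.49 to -0.01), with an unadjusted p of 0.0433 and an adjusted p = 0.689 in limma over all genes. NAC against mock in the mutant gave -0.30 (1.23-fold, SE 0.11, interval -0.54 to -0.06, adjusted p = 0.809). In mock cells the genotypes differed by -0.09 (interval -0.33 to 0.15), and in wild type NAC differed from mock by -0.15 (interval -0.39 to 0.09). The genotype difference itself did not differ between NAC and mock past the threshold (interaction -0.16, SE 0.16, adjusted p = 0.999). Over both genotypes NAC gave -0.23 (SE 0.08, adjusted p = 0.514), and over both treatments the mutant gave -0.17 (SE 0.08, adjusted p = 0.549). No comparison of Kit passed the threshold. Its own residual SD of 0.08 was small, below which only 2.21% of genes lay, against a median of 0.20. The test did not use that SD alone, as limma draws each gene's variance toward that of all genes. Without mutant NAC replicate 1 the genotype difference in NAC was -0.21 and the NAC difference in the mutant -0.27.

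With NAC, genes of the LSK-defining list had mostly lower and genes of committed myeloid progenitors higher values, but none passed the test. Over both genotypes 12 of 13 LSK-defining genes, Kit included, had lower values with NAC, with a median of -0.32, and 9 had an unadjusted p under 0.05, where 7.43% of all genes did. All 17 granulocyte and monocyte progenitor genes had higher values with NAC, with a median of 0.57, and 13 had an unadjusted p under 0.05. In both lists 0 genes passed over all genes. The mean log2 signal of the LSK-defining genes lay between 7.26 and 7.59 in wild-type mock, 7.32 and 7.48 in mutant mock, 7.11 and 7.23 in wild-type NAC and 6.85 and 7.28 in mutant NAC arrays. That of the myeloid progenitor genes lay between 7.72 and 8.69, 7.18 and 8.37, 8.48 and 8.70, and 8.16 and 8.66 in the same order. The medians were -0.23 and 0.78 without the 2 arrays that stand apart. For the myeloid progenitor list these arrays held the highest mock mean (8.69) and the lowest NAC mean (8.16). Leaving them out therefore widened that difference. Mutant mock replicate 1, with 8.37, also lay within the range of the NAC arrays, and the other mock arrays lay between 7.18 and 7.79. In bulk arrays fewer cells of a type and less RNA per cell cannot be told apart, and the part of these lists in Kit's values was not tested. Between genotypes over both treatments all 11 megakaryocyte genes had higher values in the mutant (median 0.46), of which Selp, an adhesion molecule of platelets, passed (adjusted p = 0.0269 in limma), and all 11 B cell genes had lower values (median -0.25). Without the 2 arrays that stand apart these were 11 of 11 (median 0.41) and 9 of 11 (median -0.18). Selp then had an adjusted p = 0.012. Jchain, the joining chain of antibodies, which had not passed with all arrays, also passed (-3.10, adjusted p = 0.0389 in limma). With NAC over both genotypes Adgre1, of a monocyte and macrophage list and below the median gene level, passed as well (0.77, adjusted p = 0.0427 in limma). With all arrays Adgre1 had 0.56 (adjusted p = 0.36). Their part in the members' values was not tested either.

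**Figure D2:**
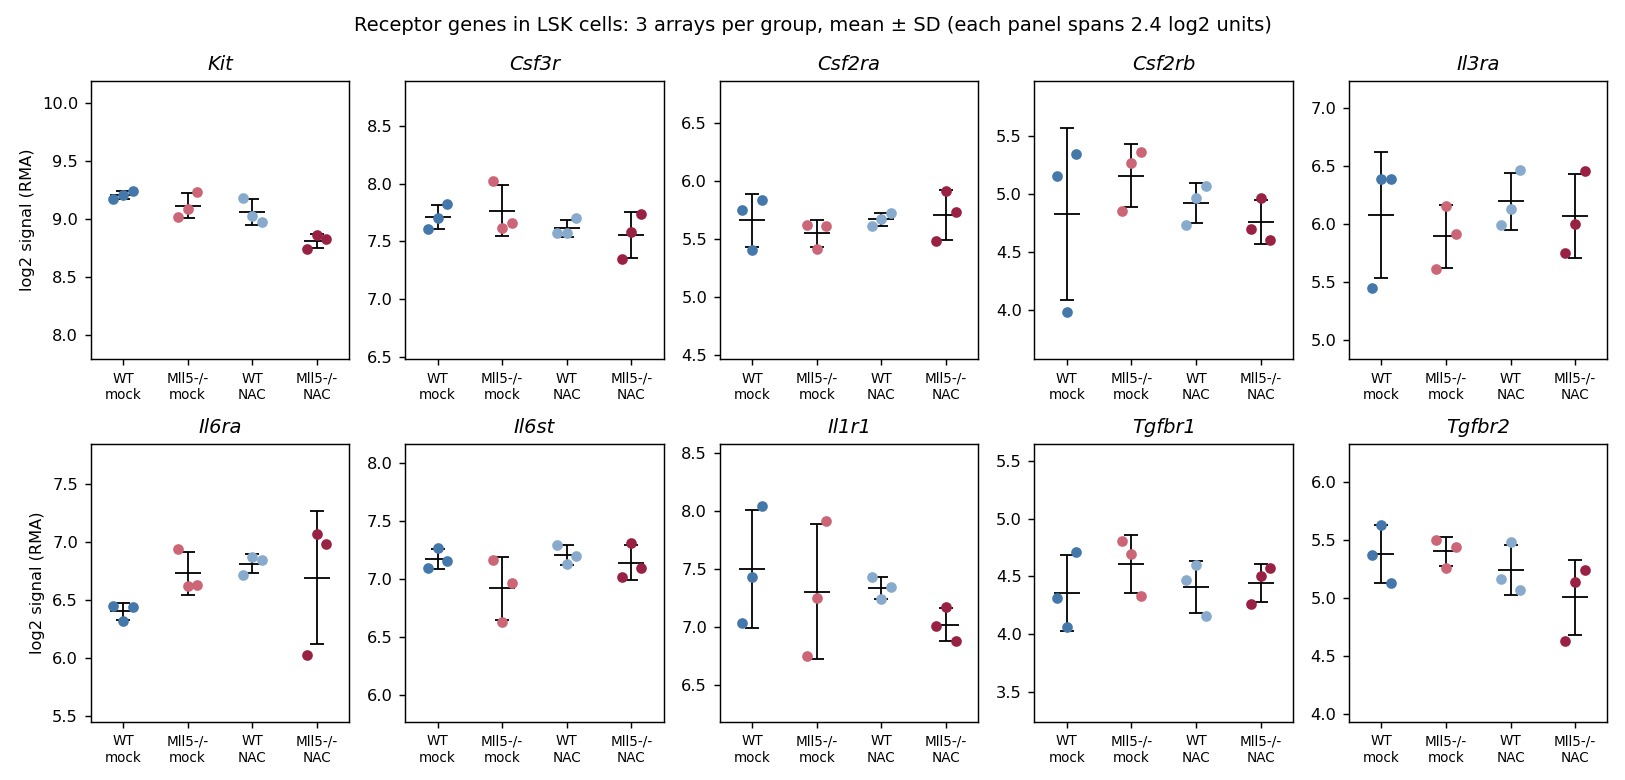
Log2 signal of the 10 receptor genes in the 4 groups, with 1 point for each array, the mean as a short line and the SD as the error bar; each panel spans the same 2.4 log2 units. Kit's 3 mutant NAC points (8.74 to 8.86) lie below its other 9, while for most other genes the points of all groups overlap.

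Of the genes whose pattern over the 12 arrays was most like that of Kit, among 10389 genes above the median level, the first 5 were Nfatc2 (Pearson r = 0.93), Synpo2, Eya2, Atf7ip (0.92 each) and Gcnt2 (0.90). These are the highest of many values over arrays that share 4 groups and are a description only. Nfatc2, a calcium-regulated transcription factor named here after its values were seen, had log2 signals of 4.14, 4.81 and 5.07 in mutant NAC cells and 5.50, 6.11 and 5.86 in wild-type mock cells. Among all pairs of members the highest correlations were those of Kit with Il1r1 (0.67) and with Tgfbr2 (0.60).

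The pathway behind Kit showed small values of mixed sign. Over both treatments 14 of 19 measured genes, Kit and its ligand Kitl included, had lower and 5 higher values in the mutant. The median was -0.06 beside 0.00 over all genes, and 0 passed over all genes. With an unadjusted p under 0.05 there were 3 lower and 0 higher genes, beside 9.08% of all genes. The largest differences were those of Plcg1, a phospholipase (-0.38, SE 0.13), and Sh2b3, an adaptor that restrains Kit and Jak2 signals (-0.26, SE 0.12). With NAC, Sh2b3 had -0.30 (SE 0.12) and Ptpn11, the phosphatase SHP2, 0.28 (SE 0.12). Without the 2 arrays that stand apart the genotype median was -0.04, with 11 of 19 lower, 2 of them at an unadjusted p under 0.05. Kitl, the ligand of Kit, gave a log2 signal of 1.68 to 2.27 on the 12 arrays, below the median gene level. So did 10 of 11 measured ligands of the members, the exception being Tgfb1.

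Csf3r, the receptor of granulocyte colony-stimulating factor, kept overlapping values in all groups. Its signals ran from 7.35 in mutant NAC replicate 1 to 8.02 in mutant mock replicate 1, a 1.59-fold range. Group means were 7.71 ± 0.11 (SD, n = 3) in wild-type mock, 7.77 ± 0.22 in mutant mock, 7.61 ± 0.08 in wild-type NAC and 7.56 ± 0.20 in mutant NAC cells. Over both treatments the genotype difference was 0.00 (SE 0.10), and no comparison passed (adjusted p from 0.798 to 1 in limma).

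The receptors that share the common beta chain differed mainly between single arrays. Csf2ra, the ligand-binding chain for granulocyte-macrophage colony-stimulating factor, kept within 5.40 and 5.91 on all arrays, and its 4 group means within 5.55 and 5.71. Il3ra, the ligand-binding chain for interleukin-3, ran from 5.45 to 6.47, with 5.45, 6.39 and 6.39 in wild-type mock and 5.61, 6.16 and 5.91 in mutant mock cells. With NAC it gave 5.99, 6.13 and 6.47 in wild type and 5.75, 6.00 and 6.46 in the mutant. Replicate 1 was the lowest array of its group in all 4 groups. That pattern, also singled out after the values were seen, was found for 412 of 22180 genes (1.86%). The genotype difference of Il3ra was -0.18 (SE 0.26, interval -0.75 to 0.38) in mock and -0.13 (SE 0.26, interval -0.69 to 0.44) in NAC, both smaller than the spread between arrays. Without wild-type mock replicate 1 the difference in mock was -0.50 (SE 0.22, adjusted p = 0.838 in limma), the wild-type arrays then lying above all 3 mutant arrays. Without mutant NAC replicate 1 the difference in NAC was 0.03.

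Csf2rb, the signalling chain of these receptors, had the largest SD over the 12 arrays of all members (0.39). Its signals were 5.16, 3.98 and 5.35 in wild-type mock, 4.85, 5.27 and 5.36 in mutant mock, 4.73, 4.97 and 5.07 in wild-type NAC and 4.70, 4.97 and 4.60 in mutant NAC cells. Wild-type mock replicate 2 was the lowest array by a wide gap, and the groups overlapped in all comparisons. The genotype difference in mock was 0.33 (SE 0.29, adjusted p = 0.875), and -0.09 without that array. NAC against mock in the mutant gave -0.40 (SE 0.29, interval -1.02 to 0.21, adjusted p = 0.918). Csf2rb2, a near copy of Csf2rb in the mouse genome that serves interleukin-3 alone, ran from 3.22 to 5.05, and since 2 such similar genes can share probes their values are uncertain. It gave 3.22, 4.23 and 4.25 in wild-type mock and 3.99, 5.05 and 4.55 in wild-type NAC cells, a difference of 0.63 (SE 0.37, adjusted p = 0.875) that was 0.29 without wild-type mock replicate 1. Between genotypes in NAC it gave -0.59 (SE 0.37, adjusted p = 0.793). By the same measure of likeness the genes nearest to Csf2rb were Tsnax (r = 0.86), Hoxa10 (0.84), Foxo6 and Mir297a-4 (0.83 each) and Ralgds (0.80).

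Il6ra, the ligand-binding chain for interleukin-6, was lowest in wild-type mock cells apart from 1 mutant array. Its signals were 6.45, 6.32 and 6.44 in wild-type mock, 6.94, 6.62 and 6.63 in mutant mock and 6.72, 6.87 and 6.85 in wild-type NAC cells. The mutant NAC arrays gave 6.03, 7.07 and 6.98, so that they held both the lowest and the highest value of the gene. Mutant mock lay above wild-type mock without overlap (0.33, 1.25-fold, SE 0.22, interval -0.15 to 0.80, adjusted p = 0.839), and 5.94% of all genes did. Wild-type NAC lay above wild-type mock without overlap (0.41, 1.33-fold, SE 0.22, interval -0.07 to 0.89, adjusted p = 0.872), as did 5.42% of all genes. Neither passed the threshold. The value of 6.03 came from mutant NAC replicate 1, and without that array NAC against mock in the mutant turned from -0.04 to 0.29. The smallest adjusted p of any member under any alternative was 0.3, for Il6ra over both genotypes without both arrays that stand apart.

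Il6st, the gp130 chain that carries the signal of Il6ra, showed no such pattern. Its signals were 7.10, 7.27 and 7.16 in wild-type mock and 7.17, 6.63 and 6.97 in mutant mock cells, a difference of -0.25 (SE 0.15, interval -0.57 to 0.06, adjusted p = 0.822). Without mutant mock replicate 2 the difference was -0.11. The other 2 groups lay between 7.02 and 7.31. Of the 6 measured receptors of the gp130 family, Il6ra and Il6st included, 0 passed in any comparison. Il27ra, a receptor chain for interleukin-27, had the largest difference with NAC over both genotypes (-0.51, SE 0.14, adjusted p = 0.405), and Lifr, Osmr and Cntfr lay at or below the median gene level.

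Il1r1, the receptor of interleukin-1, varied most between mock arrays. Its signals were 7.03, 7.43 and 8.04 in wild-type mock and 6.75, 7.25 and 7.91 in mutant mock cells. In both of these groups they rose from replicate 1 to replicate 3, and whether same-numbered arrays belong together is not known. With NAC they were 7.43, 7.24 and 7.34 in wild type and 7.01, 7.17 and 6.88 in the mutant. In NAC the mutant arrays lay below the wild-type arrays without overlap, as 6.05% of all genes did. That difference was -0.32 (1.25-fold, SE 0.27, interval -0.91 to 0.27, adjusted p = 0.851), within the spread that the mock arrays added to the fit. In mock the genotypes differed by -0.20, a value that became -0.50 when the third mutant mock array was left out, 0.08 when the first was, and 0.07 when wild-type mock replicate 3 was. Without wild-type mock replicate 1 it was -0.43.

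Other genes of the interleukin-1 pathway held larger differences than Il1r1 itself. Over both treatments 8 of 16 measured genes had higher and 8 lower values in the mutant, 3 in each direction with an unadjusted p under 0.05 (9.08% of all genes had one), and 0 passed over all genes. Il1r2, the decoy receptor that binds interleukin-1 without a signal, had the lowest value of the list, -1.03 on the log2 scale (SE 0.32, adjusted p = 0.339). Il18r1, a receptor chain for interleukin-18, had -0.56 (SE 0.17, adjusted p = 0.339), Tab1, an adaptor of the kinase TAK1, 0.52 (SE 0.31, adjusted p = 0.647), and Irak3, a brake on the pathway, 0.28 (SE 0.12, adjusted p = 0.519). Without the 2 arrays that stand apart 1 higher and 3 lower genes of the list had an unadjusted p under 0.05, and Tab1 had 0.28. Without wild-type mock replicate 1 alone Tab1 had 0.22.

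Tgfbr2, which binds TGF-beta first, and Tgfbr1, the kinase it then activates, were examined together. Tgfbr2 gave 5.37, 5.63 and 5.13 in wild-type mock and 5.50, 5.26 and 5.44 in mutant mock cells. With NAC it gave 5.16, 5.48 and 5.07 in wild type and 4.63, 5.14 and 5.24 in the mutant. In the mutant the NAC arrays lay below the mock arrays without overlap, as 5.14% of all genes did, with a difference of -0.40 (1.32-fold, SE 0.18, interval -0.79 to 0.00, adjusted p = 0.85). The lowest value belonged to mutant NAC replicate 1, and without it the difference was -0.21. In wild type NAC gave -0.14 (SE 0.18, interval -0.54 to 0.26). Tgfbr1 ran from 4.06 to 4.81, its group means were 4.36, 4.61, 4.41 and 4.44 in the order wild-type mock, mutant mock, wild-type NAC and mutant NAC, and its groups overlapped in every comparison.

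The wider list of TGF-beta superfamily receptors and SMADs had mostly lower values with NAC. Over both genotypes 20 of 23 measured genes were lower and 3 higher, with a median of -0.13 beside 0.00 over all genes, of which 49.3% were higher. With an unadjusted p under 0.05 there were 4 lower and 0 higher genes, beside 7.43% of all genes, and 0 passed over all genes. Bmpr2, a receptor of bone morphogenetic proteins, had -0.40 (SE 0.10, adjusted p = 0.324) and Eng, the co-receptor endoglin, -0.41 (SE 0.11, adjusted p = 0.401), whereas Smad5 had 0.17 (SE 0.10). Without the 2 arrays that stand apart 20 were lower and the median was -0.18. Between genotypes over both treatments the list had a median of -0.04. There Tgfbr3, the co-receptor betaglycan, had 0.49 (SE 0.14, adjusted p = 0.308) and Smad7, an inhibitor induced by the pathway, -0.43 (SE 0.15, adjusted p = 0.411). Of 10 measured target genes of TGF-beta, 0 passed between genotypes over both treatments, with the largest differences in Tgfbi (0.68, SE 0.15, adjusted p = 0.222) and Bhlhe40 (-0.71, SE 0.20, adjusted p = 0.307).

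Downstream of the cytokine receptors, feedback and target genes of the STAT factors were lowest in mutant NAC cells. The mean log2 signal of the 13 measured genes lay between 5.52 and 5.76 on the mutant NAC arrays, below the 5.86 to 6.26 of the other 9. This pattern too was singled out after the values were seen. The lowest value, 5.52, was that of mutant NAC replicate 1, which stands apart, and replicates 2 and 3 gave 5.76 and 5.70. Between genotypes in NAC 10 were lower and 2 higher, with a median of -0.41, and 5 lower and 1 higher had an unadjusted p under 0.05 (7.17% of all genes). None passed over all genes. In mock the median was -0.02. Without the 2 arrays that stand apart the median in NAC was -0.24, with 10 of 13 lower. There 4 lower and 0 higher genes had an unadjusted p under 0.05 (6.8% of all genes). In mock the median was then -0.07, with 9 of 13 lower. There 2 lower and 0 higher genes had an unadjusted p under 0.05 (6.62% of all genes). Over both treatments Osm, the cytokine oncostatin M, had -0.48 (SE 0.17, adjusted p = 0.411) and Pias3, an inhibitor of Stat3, -0.44 (SE 0.12, adjusted p = 0.298), while Bcl2l1, the survival gene for BCL-XL, had 0.23 (SE 0.11, adjusted p = 0.563). With NAC over both genotypes Socs2, a feedback inhibitor of cytokine signals, had -1.02 (SE 0.35, adjusted p = 0.512). It was the only gene of the list at or below the median gene level. Its signals were 2.31, 3.83 and 4.21 in wild-type mock and 4.32, 2.16 and 3.85 in mutant mock cells. The NAC arrays lay between 2.06 and 2.78. Without the 2 arrays that stand apart its difference was -1.27 (adjusted p = 0.287 in limma). Of the 9 measured Janus kinases and STATs, 8 were lower with NAC (median -0.12), among them Stat4 (-0.40, SE 0.11, adjusted p = 0.438), and 0 passed.

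**Figure D3:**
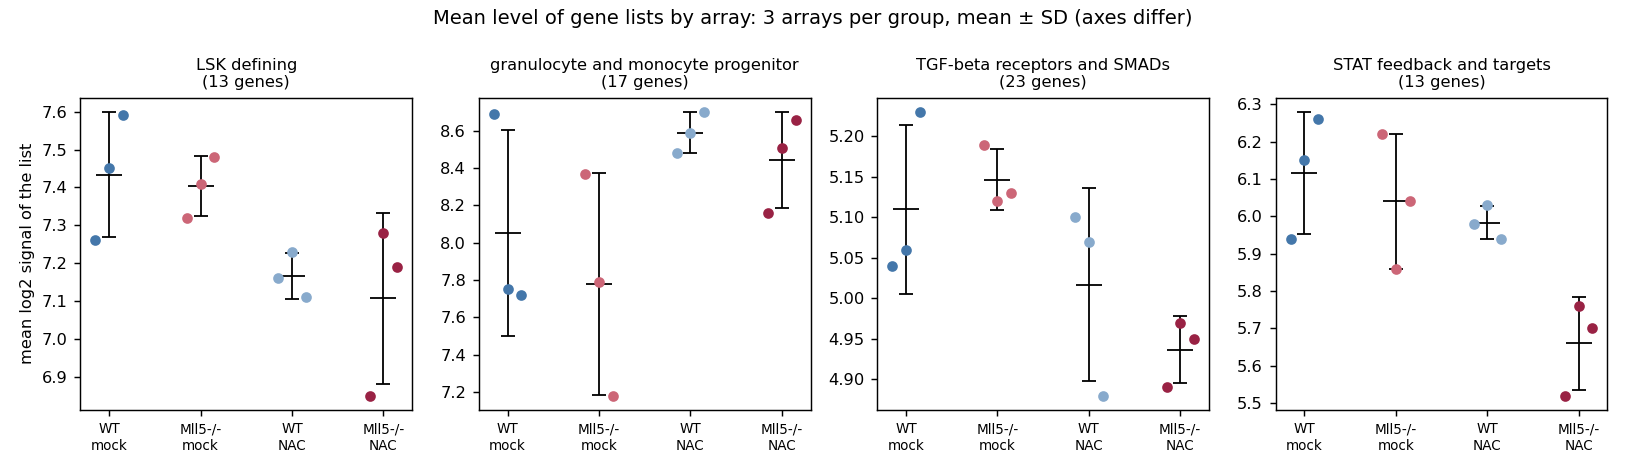
Mean log2 signal of 4 gene lists on each array, by group, with the mean and SD of 3 arrays; the vertical axes differ. Mutant NAC arrays lie below all others for the STAT feedback and target genes (5.52 to 5.76), and LSK-defining genes are lower and myeloid progenitor genes higher in most NAC arrays.

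Other growth factor and cytokine receptors of blood cells, with 32 genes measured, held single differences of larger size. Over both treatments 17 of 32 measured genes were lower and 15 higher in the mutant, with 7 lower and 2 higher at an unadjusted p under 0.05, beside 9.08% of all genes, and 0 passed over all genes. These were 6 lower and 2 higher without the 2 arrays that stand apart. Flt3, a receptor of early progenitors related to Kit, had -0.74 (SE 0.17, adjusted p = 0.225) and Il7r, of lymphoid precursors, -0.95 (SE 0.28, adjusted p = 0.338). Il15ra had 0.47 (SE 0.15, adjusted p = 0.341) and Tek, the angiopoietin receptor of stem cells and endothelium, 0.45 (SE 0.18, adjusted p = 0.492). With NAC over both genotypes Pdgfrb had -0.66 (SE 0.17, adjusted p = 0.36), Flt3 -0.45 (SE 0.17, adjusted p = 0.559), Il7r 0.50 (SE 0.28, adjusted p = 0.752) and Csf1r, of monocytes, 0.41 (SE 0.23, adjusted p = 0.757), the last being 0.68 without both arrays that stand apart. Flt3 also stands in the LSK-defining list and Csf1r in that of myeloid progenitors.

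Counted over the 10 members, 0 passed limma's test over all genes in any of the 7 comparisons, and 5 of 70 member tests had an unadjusted p under 0.05. The comparison of genotypes in mock asked what the loss of Mll5 changes without NAC. It called 0 members at an adjusted p under 0.05, as it did 0.00902% of all genes. An unadjusted p under 0.05 was found for 0 members, beside 6.63% of all genes. Without both arrays that stand apart 2 members, Il3ra and Il6ra, had one, beside 6.62% of all genes, and 0 passed. In NAC 8 of 10 members were lower in the mutant with a median of -0.12, 1 had an unadjusted p under 0.05 beside 7.17% of all genes, and 2 (Kit and Il1r1) lay lower without overlap beside 6.05%. Without mutant NAC replicate 1, 5 of 10 were lower, the median was 0.01 and 0 had an unadjusted p under 0.05. For NAC in the mutant 0 members passed beside 0.00451% of all genes, 7 of 10 were lower with a median of -0.19, 2 (Kit and Tgfbr2) had an unadjusted p under 0.05 beside 5.86%, and the same 2 lay lower without overlap beside 5.14%. Without mutant NAC replicate 1, 6 of 10 were lower, the median was -0.09 and 0 had an unadjusted p under 0.05. For NAC in wild type the median was 0.02 and 0 members had an unadjusted p under 0.05 beside 5.92%. Without both arrays that stand apart the median was -0.07 and 1 member, Il6ra, had one, beside 7.65%. For the interaction 0 members had an unadjusted p under 0.05, beside 4.21%, and 0 without both arrays, beside 4.68%. Over both treatments and over both genotypes 0 members passed, beside 0.00902% and 0.00451% of all genes. In each, 1 member, Kit, had an unadjusted p under 0.05, beside 9.08% and 7.43% of all genes. Without both arrays the 1 member over both treatments was Il6ra, beside 8.55%. Over both genotypes there were then 2, Kit and Il6ra, beside 7.9%, and 0 passed. Counts of 1 or 2 among 10 members are too small to be told apart from these shares of all genes. The comparisons within NAC and within the mutant share the mutant NAC arrays.

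**Figure D4:**
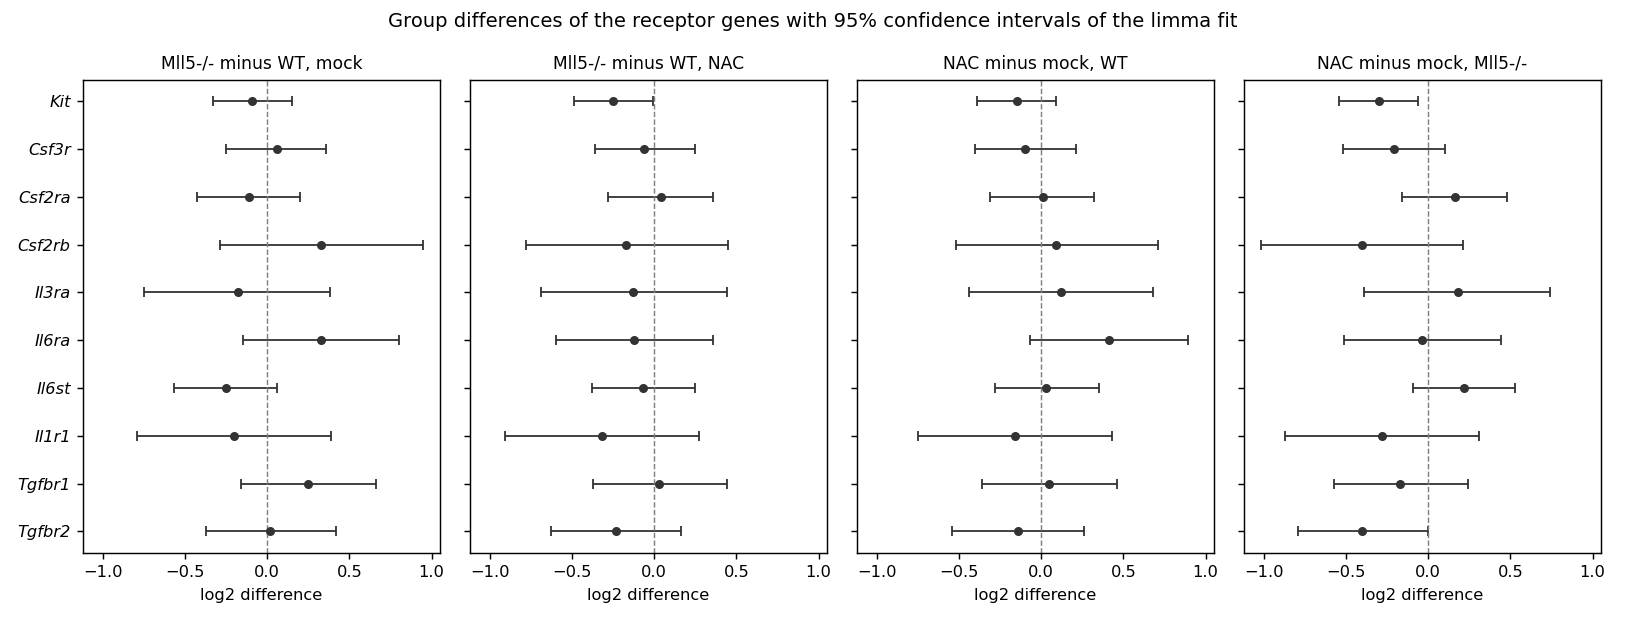
Log2 differences of the 10 receptor genes (horizontal axis) in 4 comparisons, with the 95% confidence interval of the limma fit as the bar and a dashed line at 0. The intervals of Kit for NAC, between genotypes (-0.49 to -0.01) and in the mutant (-0.54 to -0.06), lie below 0, that of Tgfbr2 for NAC in the mutant ends at 0.00, and the others hold 0.

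The intervals, each for a single gene and not adjusted, describe what could have been missed given the scatter among these arrays. As part or all of that scatter could be technical, they may not bound differences between mice. In mock the members' intervals between genotypes ran from -0.79 to 0.95, so that differences beyond 1.93-fold lay outside all of them. In NAC they ran from -0.91 to 0.45, for NAC in the mutant from -1.02 to 0.74 and for NAC in wild type from -0.75 to 0.89. A p that misses the threshold does not show that the receptors were alike in the groups.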

How the data were processed

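Biotin-labelled RNA from sorted LSK cells was measured on 12 Affymetrix arrays. The deposited values are log2 signals; the submitters' processing notes name Affymetrix Power Tools and RMA, which corrects background, quantile-normalises and summarises probe sets. Tool versions and build: not given in the sources used here. The log base was inferred from the range, 0.74 to 13.23. Of 41345 probe sets 23521 had 1 symbol and 1814 several. For each of 22180 symbols the brightest probe set by its mean was kept, dim genes included. limma 3.58.1 (R 4.3.3; lmFit, eBayes) estimated 4 group means from the 12 arrays together, with Benjamini-Hochberg adjustment across all genes and a threshold of 0.05; the script was tested on simulated data.

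The members and lists were chosen with earlier results of these data known. Besides the members, the rule named Csf2rb2, list genes past the threshold, those with the 2 largest differences per direction of each pathway list in the comparisons over both levels of the other factor (of which some are shown), and the 5 genes most like Kit and Csf2rb. Over all genes the deviations of same-numbered arrays from their group means were not correlated (18 pairs, r from -0.06 to 0.06). The number therefore served as a block only in an alternative. A correlation over all genes does not show that same-numbered arrays were unrelated for single genes or lists. Alternatives changed the filter, weights, centring, quantile normalization, variance model, probe set choice or groups fitted, or left out arrays; for gene lists, counts over members and named list genes, leaving out the arrays that stand apart was chosen after seeing the data. The number of arrays limits the precision. Promoter sequences are from RefSeq (GRCm38.p6).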

Additional observations from a re-analysis of the deposited data

How the results depend on the processing

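None of 1440 values of the members under the alternatives passed the threshold. Of these, 51, in 25 of the 70 results, changed sign and 1389 did not, with results or values that rounded to 0.00 counted among the latter. Csf3r between genotypes over both treatments was such a result, 0.00 and from -0.06 to 0.05 with each array left out. Without both arrays that stand apart, signs changed in NAC between genotypes for Csf3r (0.05), Il3ra (0.03) and Il6ra (0.21). They also changed for Il6ra with NAC in the mutant (0.29) and for Il3ra (-0.19) and Il6st (-0.01) with NAC in wild type. In the interaction they changed for Csf3r (0.04) and Il1r1 (0.12), and between genotypes over both treatments for Csf2ra (0.04). Array weights gave Il6ra 0.04 between genotypes in NAC and 0.13 with NAC in the mutant. Centring gave -0.01 for Tgfbr2 between genotypes in mock and for Csf2ra with NAC in wild type. Leaving out each array in turn turned the sign of differences whose ranges were as follows. Between genotypes in mock these were Csf2rb from -0.09 to 0.59, Csf3r from -0.07 to 0.13, Il1r1 from -0.50 to 0.08 and Tgfbr2 from -0.10 to 0.15. Between genotypes in NAC these were Csf2ra from -0.06 to 0.15, Csf3r from -0.15 to 0.05, Il3ra from -0.32 to 0.03, Il6ra from -0.31 to 0.21 and Tgfbr1 from -0.09 to 0.13. With NAC in the mutant these were Il1r1 from -0.56 to 0.02, Il3ra from -0.02 to 0.34 and Il6ra from -0.23 to 0.29. With NAC in wild type these were Csf2ra from -0.12 to 0.09, Csf2rb from -0.33 to 0.35, Il1r1 from -0.40 to 0.11, Il3ra from -0.19 to 0.28, Il6st from -0.01 to 0.08 and Tgfbr1 from -0.10 to 0.23. In the interaction these were Csf3r from -0.21 to 0.01, Il1r1 from -0.40 to 0.18 and Il3ra from -0.14 to 0.37. Between genotypes over both treatments these were Csf2ra from -0.10 to 0.02 and Csf2rb from -0.13 to 0.21. With NAC over both genotypes these were Il3ra from -0.01 to 0.23 and Tgfbr1 from -0.13 to 0.03. The cause of these changes was not tested beyond the arrays left out. Kit kept its sign under all alternatives run.

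The count of genes past the threshold was 2 between genotypes in mock, 1 with the replicate block, 1 with only the groups compared, 0 without both arrays, and from 1 to 4 with each array left out. In NAC it was 0, 2 with the filter, 4 with array weights, 1 with only the groups compared and from 0 to 3. For NAC in the mutant it was 1, 2 with array weights or a fresh quantile normalization, 0 without both arrays and from 0 to 2. For NAC in wild type it was 2, 1 with only the groups compared and from 1 to 5. For the interaction it was 0 and from 0 to 2. Between genotypes over both treatments it was 2, 1 with the replicate block, 4 with array weights or without both arrays and from 1 to 7. With NAC over both genotypes it was 1, 3 without both arrays and from 1 to 4. The cause was not tested.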
